A study of Homo sapiens with 12 samples.

Results

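The 172 genes described here carry a numbered LINC symbol, the name given to long intergenic noncoding RNAs, and were well covered in nascent RNA. They are the gene rows whose symbol is LINC followed by digits and whose mean raw count over the 6 4sU-seq libraries was 100 or more, with 2 such rows, LINC00704 and LINC00960, left out by name. They were drawn from 967 LINC rows among 56104 genes, and 793 LINC rows lay under the threshold. The genes were thus selected on their nascent counts, and a high nascent level is not a result. Just inside the threshold were LINC01121, LINC00612 and LINC01397, with mean counts of 103, 102 and 101, and just outside it were LINC00571, LINC01592 and LINC00637, with 97.7, 97.3 and 96.5. LINC00704 and LINC00960 are not analysed here.

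HCT116, a human colorectal carcinoma cell line, was compared as control cells (Ctrl) and as cells with a knockout (KO) of PPM1G, a nuclear phosphatase of the PP2C family, at fewer than 15 passages. In 4sU-seq the cells were given 500 µM 4-thiouridine for 10 min, and the labelled RNA was biotinylated and captured from 300 µg of RNA, which enriches for newly made transcripts. RNA-seq measured steady-state RNA in the same 2 genotypes, and all 4 groups held 3 libraries and ERCC spike-in RNA. The controls are titled as knockout controls, which the labels do not describe further, and neither the edited site nor the clonal origin of the KO cells, nor the RNA-seq library type, is given in the sources used here. The labels describe separate cultures for the 4sU-seq replicates and say nothing of the RNA-seq cultures, so p-values there measure only the spread between these libraries.

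Long noncoding RNAs are made by RNA polymerase II, and many are capped, spliced and polyadenylated like mRNAs. Many stay in the nucleus, and many are destroyed soon after synthesis by the nuclear RNA exosome, so a gene can be transcribed strongly while little of its RNA accumulates. Some LINC loci lie back to back with a protein-coding gene and share its promoter region, and some have since been found to encode small proteins and were renamed. The deposited tables type 128 of the genes as lincRNA, 16 as antisense, 14 as processed transcripts, 8 as protein-coding and 6 as pseudogenes. Current RefSeq gives 37 of them another symbol and lists 9 as protein-coding. With GENCODE 29 coordinates on hg38, found for 165 genes, the median span was 30.2 kb (range 1.25 to 671 kb), and the median merged exon length 2.52 kb.

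The 4sU-seq libraries held 79403238 to 101884166 gene counts and the RNA-seq libraries 30962756 to 42479828. The LINC genes took 0.380 to 0.424% of all nascent gene counts and 0.0607 to 0.0783% of all steady-state ones. PPM1G itself was lower in KO, at 242, 271 and 235 CPM (read counts scaled to TMM-normalised library size) in the nascent Ctrl libraries and 98.9, 144 and 104 CPM in KO, and at 326, 293 and 331 CPM against 97.9, 95.0 and 98.0 CPM in RNA-seq. The 9 markers of colon epithelium summed in 4sU-seq to 1359 to 1672 CPM in Ctrl and 1215 to 2062 CPM in KO. In RNA-seq they were lower in KO, at 2785 to 3187 CPM in Ctrl and 2599 to 2711 CPM in KO. CEACAM5 and LGR5 were at or near 0 in both assays. Summed markers of fibroblasts (5 genes) and endothelium (4 genes) were low but higher in KO, for example 4.28 to 6.28 CPM in Ctrl and 9.76 to 11.1 CPM in KO for the fibroblast genes in RNA-seq and 5.97 to 6.68 against 12.7 to 12.9 CPM for the endothelial genes in 4sU-seq. Summed leukocyte markers (5 genes) were near 0 and also higher in KO. They were at 0.170 to 0.205 CPM in Ctrl and 0.290 to 0.335 CPM in KO in 4sU-seq. In RNA-seq they were at 0.179 to 0.247 CPM in Ctrl and 0.411 to 0.529 CPM in KO. The part of all these marker genes in the results below was not tested. In bulk RNA, a change in each cell and a change in the share of cells cannot be told apart.

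4sU-seq KO replicate 2 stood apart from KO replicates 1 and 3. Its difference from them, as chi-square per degree of freedom over genes, was 431 and 578, against 45.0 between replicates 1 and 3. Among the LINC genes it was the lowest KO library for 97 and the highest for 60 of 172. Across the 165 genes with coordinates, its log2 deviation from the other KO libraries fell with gene span (Spearman rho −0.59; genes share the libraries and are not replicates). Without this library 102 LINC genes were called in nascent RNA (70 higher, 32 lower) in place of 43, and 11673 genes in all in place of 4166. In RNA-seq, KO replicates 1 and 2 were closer to each other (2.15) than any other pair of RNA-seq replicates (16.4 to 29.7), yet differed by more than sampling noise, and were kept as separate libraries.

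**Figure D1:**
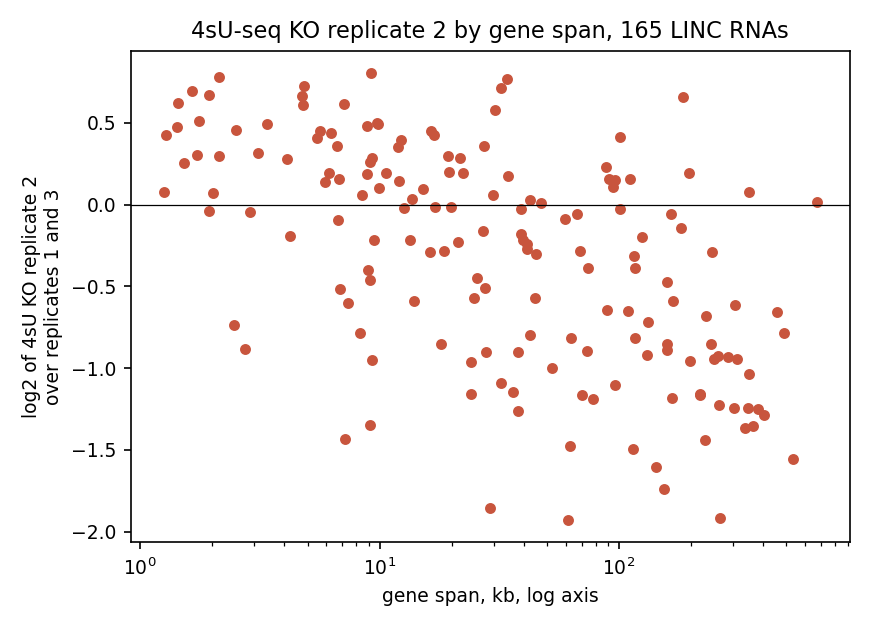
Each point is a LINC gene with coordinates (n = 165); the x axis is the gene span in kb on a log axis and the y axis the log2 ratio of 4sU-seq KO replicate 2 to the mean log2 level of KO replicates 1 and 3 (CPM + 0.5). Points fall with span (Spearman rho −0.59), and most genes over 100 kb lie below 0.

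The first question was which LINC genes have another nascent level in KO cells. In nascent RNA 28 LINC genes rose and 15 fell in KO cells, and 129 were not called. The largest rise was that of LINC00992, 9.39-fold, and the largest fall that of LINC01405, 3.90-fold. LINC00992 passed the count threshold through the KO libraries alone. The 43 called genes are 25% of the 172, beside 19.6% of all 21236 genes tested; the higher calls stand beside a background of 12.6% and the lower calls beside 6.98%. Calls of more than 2-fold numbered 20 higher and 2 lower, beside 8.31% and 1.16% of all genes tested. The median log2 change was 0.23 for the LINC genes and 0.05 for all genes, and 0.31 for the 2180 tested lincRNA genes outside the set, of which 412 rose and 102 fell.

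Every change is KO over Ctrl on the log2 scale, tested with edgeR's quasi-likelihood F test with Benjamini-Hochberg adjustment over all genes tested in that assay (threshold 0.05), and ± is a standard error (n = 3 libraries per group). The Ctrl and KO libraries did not overlap in any of the 43 called genes, as in 4164 of all 4166 called genes. The threshold on the mean count let 18 genes in through KO libraries alone, 9 of them called higher, and 2 through Ctrl libraries alone, both called lower; with 100 counts or more required in both groups, 19 of 152 genes rose and 13 fell (21.1%), with a median of 0.16. Scaling by ERCC left 7 calls, 6 higher (LINC00992, LINC01468, LINC00877, LINC01503, LINC00173 and LINC01629, the last named after its value was seen) and 1 lower (LINC01405), and moved the median of all genes to 0.27. LINC00992 and LINC00877 are among the 18 genes let in through KO libraries alone. ERCC scaling left 3.37% of all genes called, and ERCC reads were only 0.0230 to 0.0560% of 4sU-seq gene counts. Scaling by library size alone gave 34 higher and 11 lower, with 18.6% of all genes called.

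LINC00992, a gene on chromosome 5 (ENSG00000248663, 117415509 to 117546298, plus strand) with no established function, was nearly silent in Ctrl. Its nascent level was 0.362, 0.338 and 0.438 CPM in Ctrl replicates 1 to 3 and 4.27, 2.05 and 4.38 CPM in KO (log2 3.23 ± 0.34, adjusted p = 0.00232). Its steady-state level went from 0.0740, 0.0598 and 0.195 CPM to 1.75, 1.62 and 1.12 CPM (3.80 ± 0.36, adjusted p = 1.76e-06). Every KO library lay above every Ctrl library in both assays, although the RNA-seq Ctrl level rests on 11 counts over 3 libraries, where 3 counts per library stand for 0.0740 to 0.0973 CPM.

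LINC01021, now PURPL, is a p53 target whose RNA is known to hold down basal p53 levels. Its nascent level was 0.383, 0.290 and 0.559 CPM in Ctrl and 3.32, 1.48 and 3.42 CPM in KO (2.74 ± 0.40, adjusted p = 0.00666), and its steady-state level 0.222, 0.388 and 0.195 CPM in Ctrl and 1.23, 1.08 and 1.21 CPM in KO (2.12 ± 0.26, adjusted p = 2.07e-05). The KO libraries were above the Ctrl libraries in both assays, and KO replicate 2 was the lowest of the nascent KO values, as for LINC00992. PURPL lies on chromosome 5 from 27472292 to 27496401 (plus strand). Under ERCC scaling its nascent call was lost (adjusted p = 0.0512).

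The promoter windows of LINC00992 and PURPL, which rose most in nascent RNA, are shown beside those of LINC00511 and CYTOR, highly transcribed genes that fell, and of LINC01135, the divergent partner of JUN described further on. LINC00992 and PURPL both passed the count threshold through the KO libraries alone. Each is the RefSeq window from 250 bases before to 50 bases after the start site (GRCh38.p14), printed 5′ to 3′ on the gene's strand, with capitals for a TATA box (TATAAA), AP-1 (TGANTCA), CRE (TGACGTCA), ETS (CCGGAAGT) or E-box (CACGTG) match on either strand. For CYTOR, RefSeq and GENCODE 29 place the start 646 bases apart, and for the other 4 genes within 23 bases.
LINC00992 (chr5:117415262-117415561, plus strand): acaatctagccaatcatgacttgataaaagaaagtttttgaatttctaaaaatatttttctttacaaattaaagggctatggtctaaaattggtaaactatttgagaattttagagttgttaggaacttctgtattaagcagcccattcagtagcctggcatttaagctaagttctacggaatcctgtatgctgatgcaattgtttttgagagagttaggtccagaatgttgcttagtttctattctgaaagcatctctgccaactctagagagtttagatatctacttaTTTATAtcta
PURPL (chr5:27472042-27472341, plus strand): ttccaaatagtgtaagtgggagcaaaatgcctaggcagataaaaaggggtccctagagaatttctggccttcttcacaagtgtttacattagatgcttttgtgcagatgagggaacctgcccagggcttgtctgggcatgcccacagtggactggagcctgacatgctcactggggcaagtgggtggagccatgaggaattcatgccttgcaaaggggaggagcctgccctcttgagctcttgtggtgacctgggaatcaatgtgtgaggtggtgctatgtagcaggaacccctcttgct
LINC00511 (chr17:72640423-72640722, minus strand): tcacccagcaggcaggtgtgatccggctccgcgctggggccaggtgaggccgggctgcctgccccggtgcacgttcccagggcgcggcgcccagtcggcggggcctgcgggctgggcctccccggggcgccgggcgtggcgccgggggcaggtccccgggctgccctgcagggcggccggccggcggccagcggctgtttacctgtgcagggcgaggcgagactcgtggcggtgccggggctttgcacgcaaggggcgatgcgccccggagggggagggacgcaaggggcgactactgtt
CYTOR (chr2:87455177-87455476, plus strand): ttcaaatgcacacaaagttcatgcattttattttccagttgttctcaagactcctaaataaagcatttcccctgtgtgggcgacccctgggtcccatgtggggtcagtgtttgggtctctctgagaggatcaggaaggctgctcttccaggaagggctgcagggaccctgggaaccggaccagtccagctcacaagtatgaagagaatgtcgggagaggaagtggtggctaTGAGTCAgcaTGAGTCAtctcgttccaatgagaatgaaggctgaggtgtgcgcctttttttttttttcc
LINC01135 (chr1:58784901-58785200, plus strand): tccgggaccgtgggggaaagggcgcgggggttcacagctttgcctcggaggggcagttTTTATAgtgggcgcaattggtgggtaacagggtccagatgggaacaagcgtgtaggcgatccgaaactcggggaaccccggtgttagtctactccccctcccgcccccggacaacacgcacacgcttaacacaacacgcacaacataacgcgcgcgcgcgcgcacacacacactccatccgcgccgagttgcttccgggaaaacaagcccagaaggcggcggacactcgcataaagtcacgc
The windows hold 1 CpG in LINC00992, 0 in PURPL, 35 in LINC00511, 31 in LINC01135 and 5 in CYTOR. CYTOR carries 2 AP-1 matches (TGAGTCA), and LINC00992 and LINC01135 each a TATA box match on the other strand (TTTATA). PURPL and LINC00511 hold none of the 5 motifs, which says only that these letters are not in these windows.

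LINC01468, now LNCAROD, is known as an activating regulator of DKK1, which encodes a secreted WNT antagonist. LNCAROD rose in nascent RNA from 5.22, 4.57 and 5.45 CPM to 29.7, 20.3 and 33.1 CPM (2.45 ± 0.21, adjusted p = 0.00132) and in steady-state RNA from 8.19, 9.14 and 8.47 CPM to 20.8, 21.4 and 22.9 CPM (1.33 ± 0.07, adjusted p = 9.06e-09). The groups were far apart in both assays, and both calls held under every alternative tried for each assay. DKK1, looked up after the value of LNCAROD was seen, was at 166, 188 and 167 CPM in nascent Ctrl and 337, 435 and 331 CPM in KO (1.08 ± 0.14, adjusted p = 0.00414), and rose in RNA-seq by 0.38 ± 0.07 (adjusted p = 0.000435); ERCC scaling ended its nascent call (adjusted p = 0.0972). LNCAROD spans 52450874 to 52755409 on the minus strand of chromosome 10.

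LINC00877 and LINC00578, on chromosome 3, were raised in nascent RNA with almost no steady-state RNA. LINC00877 was at 0.413, 0.278 and 0.401 CPM in Ctrl and 2.27, 1.63 and 1.95 CPM in KO (2.41 ± 0.22, adjusted p = 0.00148), and had no count in any RNA-seq library. LINC00578 was at 0.453, 0.411 and 0.462 CPM in Ctrl and 2.84, 1.16 and 2.55 CPM in KO (2.30 ± 0.35, adjusted p = 0.00763), with 2 counts over all RNA-seq libraries. Both entered the set through the KO libraries alone, as did LINC00992, PURPL and LINC01260. LINC01260 rose 3.06-fold in nascent RNA (1.61 ± 0.16, adjusted p = 0.00177), with 2 counts in RNA-seq. Another annotated entry named LINC01260 is 100% identical over 70.8% of its transcript, so its counts are uncertain. ERCC scaling ended the calls of LINC00578 and LINC01260 (adjusted p = 0.0579 and 0.0595).

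LINC01503, known to be driven by a super-enhancer in squamous carcinoma, rose in nascent RNA from 4.87, 4.83 and 3.95 CPM to 12.5, 16.2 and 12.5 CPM (1.59 ± 0.17, adjusted p = 0.00218) and in RNA-seq from 0.937, 0.717 and 0.519 CPM to 2.02, 1.98 and 2.05 CPM (1.44 ± 0.20, adjusted p = 5.24e-05). LINC00173 rose by a similar measure in both assays, from 3.61, 3.64 and 3.21 CPM to 10.1, 11.9 and 8.92 CPM in nascent RNA (1.57 ± 0.15, adjusted p = 0.00178) and 3.39-fold in RNA-seq (1.76 ± 0.21, adjusted p = 1.40e-05). Neither gene had overlapping groups, and these 4 calls held under every alternative tried. LINC01031 and LINC01098 rose 4.65- and 3.03-fold in nascent RNA (adjusted p = 0.0352 and 0.0463), but their KO replicate 2 values, 6.21 and 2.60 CPM, lay far below those of replicates 1 and 3 (23.5 and 26.8 CPM, 6.71 and 6.80 CPM). Each of these nascent calls was lost under 6 of 15 alternatives, with adjusted p of up to 0.138 and 0.188.

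**Figure D2:**
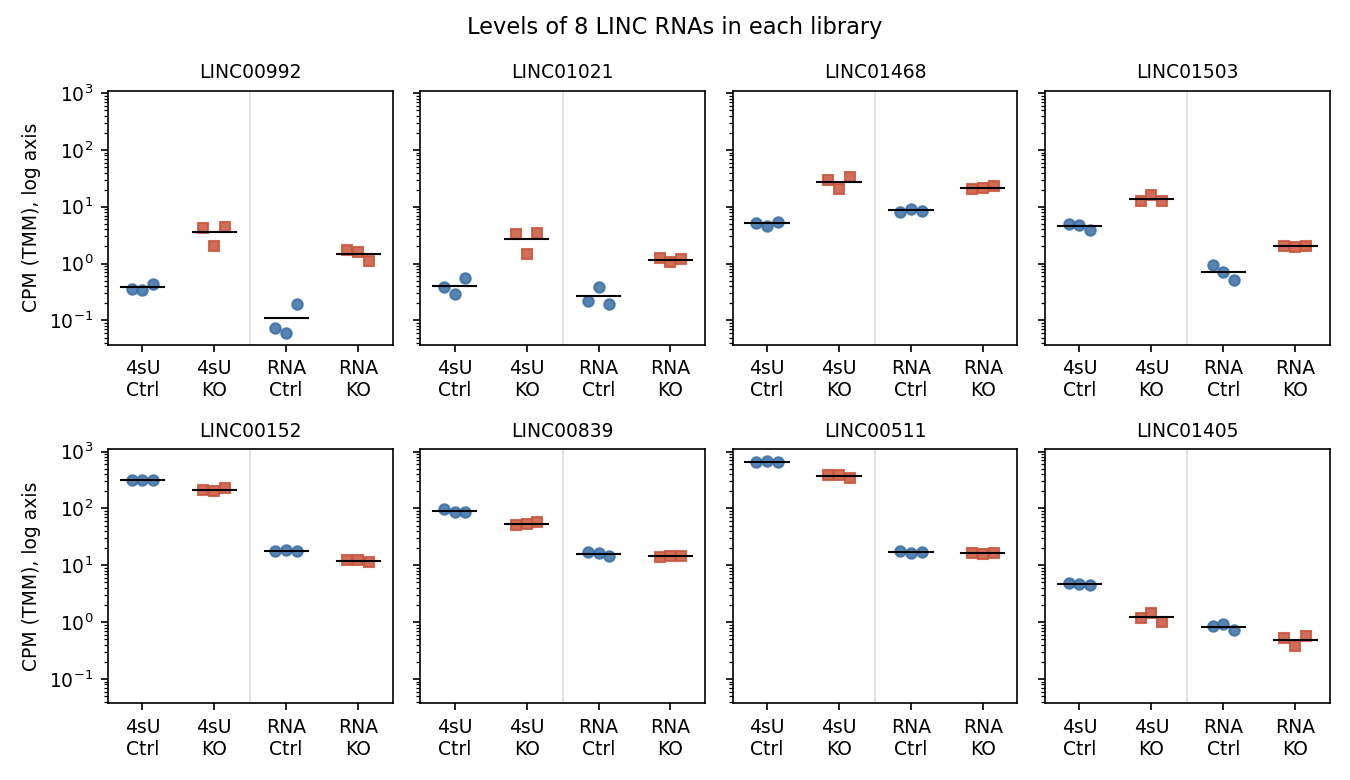
TMM-normalised CPM of 8 LINC RNAs in each of the 12 libraries, on a log axis shared by all panels; circles are Ctrl, squares KO, in the order of replicates 1 to 3, and the black bar is the mean of 3 libraries. LINC00992, LINC01021 (PURPL), LINC01468 (LNCAROD) and LINC01503 are higher in KO in both assays, LINC00152 (CYTOR) and LINC01405 lower in both, and LINC00511 and LINC00839 lower in 4sU-seq with overlapping values in RNA-seq.

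Among the genes that fell, LINC01405 (now VHRT) changed most. Its nascent level was 4.89, 4.74 and 4.52 CPM in Ctrl and 1.18, 1.44 and 1.01 CPM in KO (−1.97 ± 0.17, adjusted p = 0.00124), and its RNA-seq level 0.839, 0.926 and 0.714 CPM in Ctrl and 0.519, 0.385 and 0.560 CPM in KO (−0.77 ± 0.24, adjusted p = 0.0154). It lies on chromosome 12 (110936585 to 110958208, plus strand), its start 15863 bases from that of MYL2, a ventricular myosin light chain gene, which was lower in nascent RNA as well (−1.23 ± 0.26, adjusted p = 0.0220; not called under 6 of 15 alternatives) and in RNA-seq (−1.23 ± 0.24, adjusted p = 0.000784). The nascent call of LINC01405 held under every alternative, and the RNA-seq call was lost under 5 of 14 (adjusted p of up to 0.0991). LINC01411 fell from 1.93, 2.03 and 1.81 CPM to 0.775, 0.970 and 0.800 CPM in nascent RNA (−1.18 ± 0.15, adjusted p = 0.00409; ERCC scaling, adjusted p = 0.199), and passed the count threshold through Ctrl alone.

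LINC00511, reported at raised levels in several carcinomas, was the LINC gene with the most nascent counts and held 16.4% of all nascent Ctrl counts of the set. It fell from 651, 695 and 656 CPM in Ctrl to 384, 382 and 340 CPM in KO (−0.86 ± 0.09, adjusted p = 0.00210). In RNA-seq it was at 17.5, 16.3 and 17.4 CPM in Ctrl and 16.7, 15.7 and 16.1 CPM in KO (−0.08 ± 0.06, adjusted p = 0.324). The nascent groups were well apart, including KO replicate 2, and the steady-state groups overlapped. LINC00511 (ENSG00000227036) spans 350382 bases of chromosome 17 (72290091 to 72640472, minus strand). The nascent call held under every alternative but ERCC scaling (adjusted p = 0.509).

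LINC00152, now CYTOR, a cytoskeleton regulator RNA raised in many tumours, fell alike in both assays. It was at 317, 322 and 312 CPM in nascent Ctrl and 214, 199 and 227 CPM in KO (−0.57 ± 0.09, adjusted p = 0.00841), and at 18.1, 18.3 and 17.5 CPM against 12.5, 12.3 and 11.3 CPM in RNA-seq (−0.58 ± 0.07, adjusted p = 1.02e-05). The nascent call was lost under ERCC scaling (adjusted p = 0.810) and without Ctrl replicate 1 or 2, and the RNA-seq call under none of 15 alternatives. CYTOR has a paralogous locus, MIR4435-2HG, and how reads matching both were assigned is not given.

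LINC01106 and LINC01123, on chromosome 2, fell in both assays, by 0.73 and 0.74 on the log2 scale in nascent RNA (adjusted p = 0.0113 and 0.00936) and by 0.64 and 0.68 in RNA-seq (adjusted p = 8.35e-06 and 4.93e-06). Their values were nearly equal library by library, 75.2, 75.5 and 69.4 CPM against 73.2, 73.1 and 67.6 CPM in nascent Ctrl. Their annotated transcripts are 97.4% identical over 96.2% of that of LINC01106, so their counts are uncertain and they cannot be told apart as separate genes. ERCC scaling (adjusted p = 0.513 and 0.505) and leaving out Ctrl replicate 1 or 2 or KO replicate 1 ended both nascent calls.

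LINC00839, LINC00471, LINC00634, LINC01534 and LINC01618 also fell in nascent RNA. LINC00839 went from 96.3, 87.9 and 87.0 CPM to 52.0, 53.7 and 56.8 CPM (−0.74 ± 0.10, adjusted p = 0.00596), and LINC00471 from 4.10, 3.87 and 3.96 CPM to 2.15, 2.45 and 2.21 CPM (−0.81 ± 0.12, adjusted p = 0.00740). LINC00634, now SMIM45 and listed as protein-coding, changed by −0.73 ± 0.15 (adjusted p = 0.0196), and LINC01618 by −0.79 ± 0.22 (adjusted p = 0.0497). In RNA-seq, LINC00839, LINC00471 and LINC00634 had overlapping groups and were not called (−0.15, −0.09 and −0.06), and LINC01618 was not tested. ERCC scaling ended each of these 5 nascent calls, with adjusted p of 0.443 to 0.710, and LINC00471, LINC01534, LINC00634 and LINC01618 were lost under 2, 4, 5 and 9 of 15 alternatives. LINC01534 passed the count threshold through Ctrl alone, as LINC01411 did.

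The same question was asked of steady-state RNA. There 43 LINC genes rose and 17 fell, with 67 of the 127 tested genes not called, so the genes with higher RNA in KO outnumbered those with lower RNA. The 60 called genes are 47.2% of those tested, beside 48.4% of all 20415 genes; higher calls have a background of 21.5% and lower calls of 26.8%. The median change was 0.21, against 0.00 for all genes and 0.27 for the 991 tested lincRNA genes outside the set. Of the genes under 100 mean nascent counts in Ctrl or KO, 8 were tested in RNA-seq, and 5 rose and 0 fell. With 100 nascent counts or more required in both groups, 38 of 119 tested genes rose and 17 fell (46.2%), with a median of 0.19. Calls of more than 2-fold numbered 16 higher and 1 lower, beside 5.71% and 1.2% of all genes tested. The groups did not overlap in 55 of the 60 called genes, beside 97.1% of all 9871 called genes. Library size alone gave 60 higher and 5 lower and moved the median of all genes to 0.19, and ERCC scaling gave 44 higher and 6 lower. Of all genes tested, these scalings called 50.2% and 34.8%.

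After LINC00992, the largest rise in RNA-seq was that of LINC01031, from 0.0987, 0.149 and 0.227 CPM to 0.928, 1.23 and 0.933 CPM (2.73 ± 0.31, adjusted p = 9.95e-06). These Ctrl values lie near the limit of detection, as 3 counts stand for 0.0740 to 0.0973 CPM in the Ctrl libraries. LINC00861, on chromosome 8, rose from 1.23, 1.79 and 0.811 CPM to 4.31, 4.73 and 3.82 CPM (1.74 ± 0.20, adjusted p = 1.07e-05). Its nascent values of 19.8 and 20.0 CPM in KO replicates 1 and 3 lay above Ctrl (3.55 to 6.62 CPM), but KO replicate 2, at 5.14 CPM, did not. LINC01315 rose from 2.47, 2.30 and 3.11 CPM to 6.34, 6.65 and 6.50 CPM (1.31 ± 0.12, adjusted p = 1.47e-06), and in nascent RNA its groups overlapped (0.50 ± 0.24, adjusted p = 0.195). LINC01204 and LINC01600 rose 2.95- and 2.55-fold in RNA-seq (adjusted p = 2.34e-05 and 0.000613). Their fitted nascent changes were upward, 2.1- and 1.65-fold, and are given here as sizes only. All of these RNA-seq calls held under every alternative tried.

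The largest fall in RNA-seq was that of LINC00326, from 0.765, 1.08 and 1.23 CPM to 0.328, 0.360 and 0.404 CPM (−1.47 ± 0.26, adjusted p = 0.000400). Its nascent groups, 1.95 to 2.42 CPM in Ctrl and 1.26 to 1.70 CPM in KO, did not overlap, but the gene was not called there (−0.52 ± 0.17, adjusted p = 0.0777). LINC00662 fell in RNA-seq from 17.0, 17.2 and 17.3 CPM to 13.4, 12.3 and 12.9 CPM (−0.41 ± 0.06, adjusted p = 0.000121), while its nascent values overlapped (−0.02 ± 0.20). LINC00941, reported in colorectal cancer, fell from 7.25, 6.37 and 6.88 CPM to 5.46, 5.39 and 5.19 CPM (−0.35 ± 0.09, adjusted p = 0.00635; lost under 3 of 15 alternatives), with a nascent change of 0.10 ± 0.13. Another annotated entry named LINC00941 is 99.8% identical over 93.0% of its transcript, so its counts are uncertain. LINC01119, LINC01521 and LINC00491 fell by 0.60, 0.49 and 0.45 on the log2 scale (adjusted p = 0.0401, 0.0155 and 0.0333), calls lost under 11 of 14, 5 of 15 and 9 of 15 alternatives.

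Of the LINC genes with a described product or role, LINC00467, which encodes a mitochondrial micropeptide found in colorectal cancer, rose in RNA-seq from 12.8, 12.4 and 13.7 CPM to 23.2, 22.3 and 21.7 CPM (0.79 ± 0.06, adjusted p = 4.57e-07). Its nascent KO values were 32.9, 16.1 and 32.7 CPM against 14.1 to 19.8 CPM in Ctrl, overlapping through KO replicate 2. In nascent RNA 3 of 15 alternatives called it, leaving out that library among them (adjusted p = 0.000568 to 0.0289). LINC00963 rose in both assays, 1.87-fold in nascent RNA (adjusted p = 0.0215; lost under 5 of 15 alternatives) and 1.38-fold in RNA-seq (adjusted p = 1.89e-05). LINC01420, now NBDY, encodes a microprotein of P-bodies, the granules of mRNA decapping. NBDY was at 29.8, 28 and 29.9 CPM in Ctrl and 25, 24.5 and 27.4 CPM in KO RNA-seq (−0.19 ± 0.06, adjusted p = 0.0197), a call lost under 10 of 15 alternatives, and its nascent change was 0.01 ± 0.21. LINC00116, now MTLN, encodes a mitochondrial inner membrane peptide and was not called in either assay (0.00 ± 0.25 and 0.15 ± 0.07), although 5 of 15 alternatives called it in RNA-seq. Without KO replicate 2 the nascent change of MTLN was −0.39 (adjusted p = 0.0265). LINC00094, now BRD3OS, was not called either (0.23 ± 0.26 in nascent RNA, −0.15 ± 0.06 in RNA-seq).

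The calls of both assays were set side by side. Of the 127 genes tested in both, 17 were called higher in both, 6 lower in both and 0 in opposite directions. Over all 15863 genes tested in both, 2217 (14%) were called in both, beside 18.1% of the LINC genes, and 39 of these 2217 in opposite directions. RNA-seq alone called 37 (26 higher, 11 lower), 4sU-seq alone called 8 (1 higher, 7 lower), and 59 were called in neither. The log2 changes of the 2 assays had a Pearson r of 0.80 and a Spearman rho of 0.69 across the 127 genes, which are not independent replicates. These counts and correlations include LINC00992 and PURPL, called higher in both assays, which passed the count threshold through the KO libraries alone. The 45 genes outside these 127 had too few RNA-seq counts to be tested. In nascent RNA 10 of the 45 rose and 2 fell, and 3 had no count in any RNA-seq library. LINC00877, LINC00578 and LINC01260, among the 10 that rose, also passed the threshold through the KO libraries alone. A call in only 1 assay does not show a difference between assays, for which an interaction term of genotype with assay was tested.

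**Figure D3:**
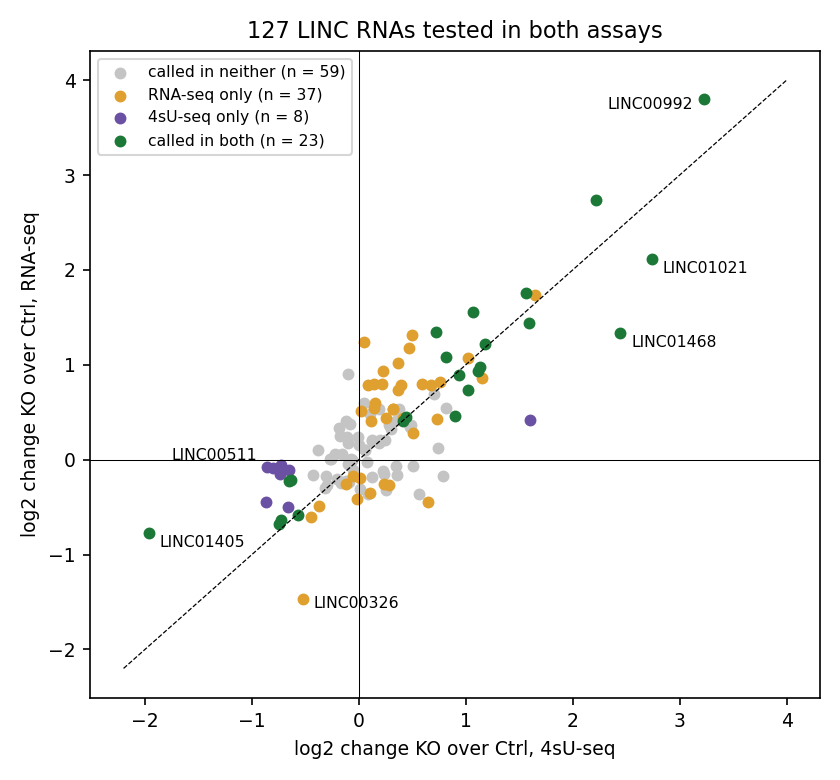
Log2 change of KO over Ctrl in 4sU-seq (x axis) and RNA-seq (y axis) for the 127 LINC genes tested in both; colour gives the assays in which the gene was called, and the dashed line marks equal change. The 23 genes called in both lie in the upper right (17) or lower left (6) quadrant, and LINC00511 lies near 0 in RNA-seq at −0.86 in 4sU-seq. LINC00992 and LINC01021 (PURPL) passed the count threshold through the KO libraries alone.

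By that test the KO change differed between assays in 4 of the 127 genes (3.15%, beside 2.14% of the 15863 genes tested), 1 higher and 3 lower in 4sU-seq beside backgrounds of 1.12% and 1.03%. The 4sU-seq change minus the RNA-seq change was −0.78 ± 0.11 for LINC00511 (adjusted p = 0.00591), −0.59 ± 0.12 for LINC00839 (adjusted p = 0.0357) and −1.19 ± 0.26 for LINC01405 (adjusted p = 0.0425). LNCAROD rose more in nascent than in steady-state RNA (1.11 ± 0.22, adjusted p = 0.0303). LINC00511 stayed called in 17 of its 18 alternatives, all but ERCC scaling, with a difference of −0.87 to −0.64. The differences of LINC00839, LNCAROD and LINC01405 were lost under 11 of 18, 12 of 18 and 14 of 17 alternatives, among them ERCC scaling, each of 4sU-seq Ctrl replicates 1 to 3 left out and KO replicate 1 left out. Without 4sU-seq KO replicate 2 the differences numbered 33 of 127 (13 higher, 20 lower), beside 5095 of all genes (32.1%).

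The nascent and steady-state levels in Ctrl were then compared, with the caution that the set was chosen for nascent counts. Per kb of merged exons, the highest nascent Ctrl levels were those of LINC00486 (117 ± 12.3 CPM per kb, SD, n = 3), LINC00854 (110 ± 4.57), LINC00431 (99.3 ± 6.97), LINC01004 (80.9 ± 14.1), LINC01399 (71.2 ± 0.657) and LINC00839 (38.7 ± 2.21). LINC00486 and LINC00854 differed by less than the SD of LINC00486. The highest steady-state Ctrl levels were those of NBDY (17.1 ± 0.619 CPM per kb), LINC01234 (11.7 ± 0.808), MTLN (8.06 ± 0.670), LINC01106 (7.87 ± 0.641), LINC00839 (6.80 ± 0.541) and LINC00674 (6.42 ± 0.694). MTLN and LINC01106 differed by less than their SDs, as did LINC00839 and LINC00674, and the counts of LINC01106 and LINC00674 are uncertain, since each has a near-identical stretch in another gene. LINC00839 stands among these 6 in both orders. Which gene parts the counting included is not given, so levels per kb are compared only within an assay.

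The nascent-to-total log2 ratio in Ctrl, taken on mean CPM plus 0.5, had a median of 1.61 over the 127 genes tested in both (quartiles 0.54 and 2.63), against 0.19 over all 15863 genes and 0.68 over 738 other lincRNA genes. It was above 0 in 115 genes, above 2 in 50 and below 0 in 12. Nascent counts chose these genes, so a higher ratio than in genes not chosen so is not a result. Over the 16 LINC rows under the count threshold that were tested in both assays, the median ratio was −0.20, with 12 below 0. Some genes outside the set had 0 CPM in both 4sU-seq groups but not in RNA-seq, such as SNHG3 (141 CPM in RNA-seq Ctrl) and EXOSC3 (72.3 CPM). Whether both assays were counted alike is not given, and what this means for the ratios was not tested. At the top were LINC00854, now CCDC200 and listed as protein-coding (7.37; 378, 361 and 348 CPM in 4sU-seq, 1.28, 2.00 and 1.78 CPM in RNA-seq), LINC01004 (6.23), LINC01399 (6.22), LINC00511 (5.25), LINC00243 (4.89) and LINC00886 (4.40). LINC00486 was outside this order, as 1 count over the 3 Ctrl RNA-seq libraries does not allow a test; its nascent level was 396, 397 and 329 CPM. Counts per gene do not show where in LINC00486 these reads lie. Longer genes had higher ratios, with medians of 0.72 under 10 kb (46 genes), 2.07 between 10 and 100 kb (49) and 2.59 above 100 kb (25; Spearman rho 0.46 over 120 genes, as a description), and the rho with exon length was 0.05.

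At the other end were genes with a higher CPM in RNA-seq than in 4sU-seq, to which the same limit on counting applies. LINC01578, now CHASERR, which lies upstream of CHD2 and is known to limit its expression, had the lowest ratio (−2.54), at 5.98, 5.38 and 4.97 CPM in 4sU-seq and 27.3, 38.0 and 36.7 CPM in RNA-seq. MTLN (−1.22), BRD3OS (−0.96), LNCAROD (−0.71), LINC01465 (−0.68) and LINC01003 (−0.48) followed. Of these 6 genes, MTLN and BRD3OS are listed as protein-coding, and LINC01465 and LINC01003 have a single exon. CHASERR was not called in KO in either assay (0.24 ± 0.14 and 0.21 ± 0.10), and CHD2, looked up with it, was not called either (0.26 ± 0.21 and −0.03 ± 0.06).

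**Figure D4:**
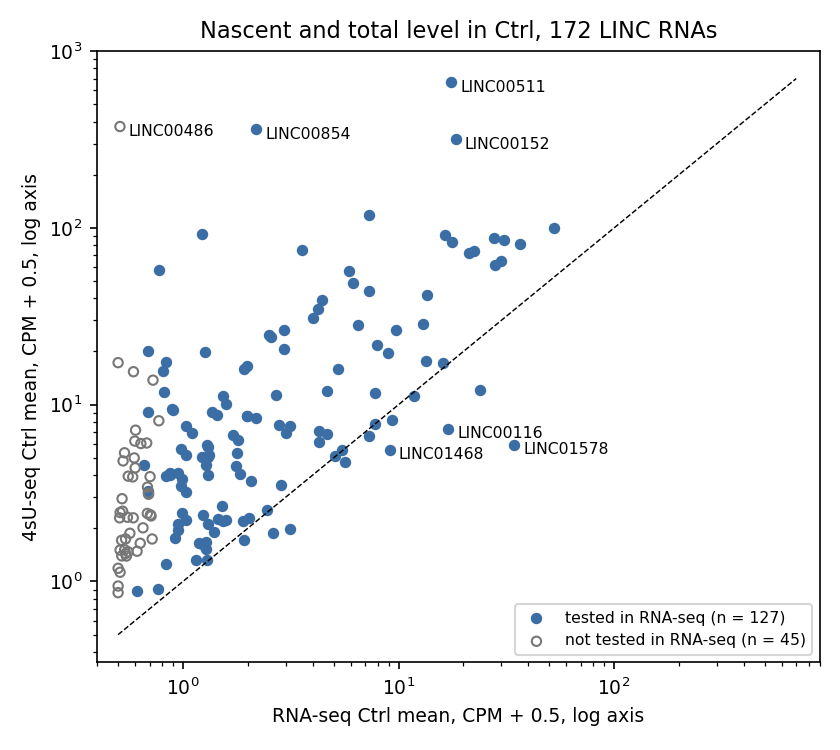
Mean Ctrl level of the 172 LINC genes in RNA-seq (x axis) and 4sU-seq (y axis), in TMM-normalised CPM plus 0.5 on log axes; filled points were tested in RNA-seq (n = 127), open points were not (n = 45), and the dashed line marks equal level. Of the filled points 115 lie above the line and 12 below it, among them LINC01578 (CHASERR), LINC00116 (MTLN) and LINC01468 (LNCAROD).

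Where a LINC gene lay beside a protein-coding gene, their nascent changes were compared. Of 165 genes with coordinates, 20 were divergent partners of a protein-coding gene with start sites within 5 kb, 20 lay on the same strand within 10 kb downstream of one, 15 overlapped one on the other strand, 9 on the same strand, and 101 were elsewhere. Over the 138 genes whose nearest protein-coding gene was tested in 4sU-seq, the changes had a Pearson r of 0.32 and a Spearman rho of 0.39, and over 98 pairs in RNA-seq of −0.05 and 0.06; 11 LINC genes share a nearest gene with another, and the pairs share libraries. Of 31 called LINC genes with a tested neighbour, the neighbour was called in the same direction for 9, in the opposite direction for 3 and not called for 19. By the same rule, 907 other called genes that are not protein-coding had a neighbour called in the same direction in 24% and in the opposite direction in 4.74%. The log2 changes had the same sign in 16 of the 20 divergent pairs, beside 437 of 672 divergent pairs (65%) of other such genes; the difference was not tested. As strand use in the counting is not given, reads of overlapping genes on opposite strands may not be told apart.

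Among the 20 divergent pairs 4 had both genes called in nascent RNA, 3 lower and 1 higher, beside 4.76% of the 672 other divergent pairs, a difference that was not tested. The LINC genes other than LINC01534 were named after their values were seen. LINC01534, now ZNF567-DT, starts 163 bases from ZNF567, a zinc finger gene, and fell from 1.87, 1.84 and 1.47 CPM to 1.02, 0.994 and 0.835 CPM (−0.86 ± 0.16, adjusted p = 0.0150), with ZNF567 at −0.58 ± 0.11 (adjusted p = 0.0134). LINC01424 and UBE2G2, a ubiquitin-conjugating enzyme gene, changed by −0.65 and −0.40 (adjusted p = 0.0263 and 0.0335), and LINC01431 and GZF1 by −0.66 and −0.42 (adjusted p = 0.0421 and 0.0455). LINC01135, now JUN-DT, starts 801 bases from JUN, which encodes an AP-1 subunit, and rose from 4.50, 4.29 and 4.70 CPM to 10.1, 7.33 and 8.44 CPM (0.94 ± 0.16, adjusted p = 0.00955). JUN rose with it in nascent RNA, from 4.71 to 17.0 CPM on average (1.86 ± 0.22, adjusted p = 0.00330), and fell in RNA-seq from 20.2 to 11 CPM (−0.87 ± 0.07, adjusted p = 2.92e-07), where JUN-DT had too few counts to test. The calls of JUN in both assays held under all 15 alternatives. Those of the 4 LINC genes were lost under 4 to 7 of 15, and those of ZNF567, UBE2G2 and GZF1 under 5, 7 and 8, ERCC scaling among them.

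**Figure D5:**
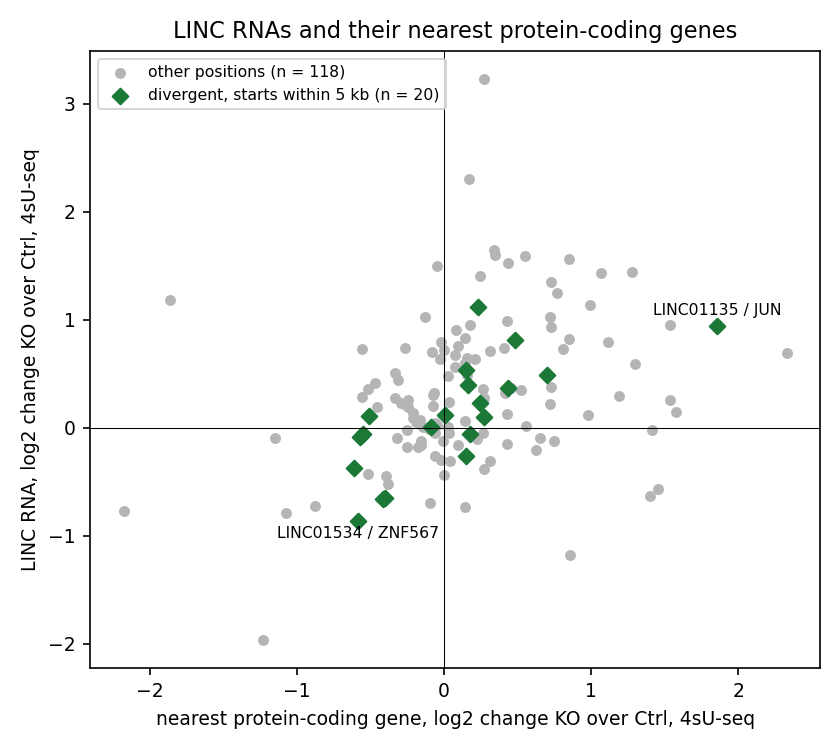
Log2 change in 4sU-seq of the nearest protein-coding gene (x axis) and of the LINC gene (y axis) for 138 pairs; green diamonds are the 20 divergent pairs with start sites within 5 kb and grey points the other 118. Of the diamonds 16 lie in the quadrants of equal sign, from LINC01534 with ZNF567 at the lower left to LINC01135 with JUN at the right.

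Of 5 pairs of LINC genes within 100 kb of each other, 1 had both genes called in nascent RNA and 1 in RNA-seq. LINC01270 and LINC01271 overlap on opposite strands of chromosome 20, with start sites 101986 and 130608 bases from that of CEBPB, a bZIP transcription factor gene. They rose in nascent RNA from 3.88, 3.39 and 3.37 CPM to 6.46, 7.45 and 6.42 CPM (0.93 ± 0.13, adjusted p = 0.00614) and from 1.87, 1.82 and 1.94 CPM to 4.68, 5.27 and 4.42 CPM (1.35 ± 0.13, adjusted p = 0.00171). LINC01270 also rose in RNA-seq (0.89 ± 0.17, adjusted p = 0.000573), and ERCC scaling ended both nascent calls (adjusted p = 0.137 and 0.0579). LINC00519 and LINC00640, 5007 bases apart on chromosome 14, both rose in RNA-seq 1.74- and 1.73-fold (adjusted p = 0.0277 and 0.00622), with overlapping groups in nascent RNA. The call of LINC00519 was lost under 4 of 14 alternatives.

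Over the 127 LINC genes with a RefSeq promoter window, motif shares were close to those of all 27305 windows, with TATAAA in 12.6 against 12%, TGANTCA in 10.2 against 7.76%, TGACGTCA in 2.36 against 1.98%, CCGGAAGT in 4.72 against 4.44% and CACGTG in 7.09 against 7.43%. The median number of CpG per window was 10 for the LINC genes and 14 for all windows. It was 6.5 in the 22 genes called higher in nascent RNA, 22 in the 12 called lower and 12 in the 93 not called; in RNA-seq the medians were 5, 10 and 21.5 over 29, 13 and 54 genes. These are descriptions of small groups, with no test. By span, nascent calls numbered 12 higher and 3 lower among 48 genes over 100 kb, where 15% and 4.58% of all tested genes of that span were called higher and lower. They numbered 9 and 4 among 66 genes of 10 to 100 kb (13% and 9.05% of all) and 7 and 8 among 51 under 10 kb (10.1% and 4.63% of all). Span is also the axis along which KO replicate 2 deviated. Of the 28 genes called higher in nascent RNA, 9 passed the count threshold through KO libraries alone. Of the 15 called lower, 2 passed it through Ctrl libraries alone. These genes are included in the CpG medians and span counts, which are thus tied to the count rule. LINC00992, LINC00877 and LINC00578 are among those over 100 kb.

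Other long noncoding RNAs and the factors that degrade such transcripts were set beside the LINC genes. Of 39 tested well-known long noncoding RNAs under other names, such as MALAT1 and NEAT1, 7 rose and 7 fell in nascent RNA, and of 41 in RNA-seq 14 rose and 4 fell (medians 0.15 and 0.07). The called share was 35.9% in nascent RNA and 43.9% in RNA-seq, beside 19.6% and 48.4% of all genes. Of 24 tested genes of the nuclear RNA exosome and its adaptors, 0 rose and 4 fell in nascent RNA (median −0.28), and of 27 in RNA-seq 1 rose and 14 fell (median −0.17). These called shares, 16.7% and 55.6%, stand beside the same 19.6% and 48.4%. By direction, 12.6% of all genes tested were called higher and 6.98% lower in nascent RNA. In RNA-seq 21.5% were called higher and 26.8% lower. Both lists stand beside these shares, and the differences were not tested. These RNA levels do not measure exosome activity, and their relation to the LINC genes was not tested.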

How the data were processed

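Nascent RNA (4sU-seq) and steady-state RNA (RNA-seq) were measured in HCT116 Ctrl and PPM1G KO cells, 3 libraries per group. The authors deposited raw counts per gene for each assay. Per the submitters' processing notes, the tools were FastQC 0.11.2, HISAT2 2.1.0, SAMtools 1.3 and featureCounts, with hg38; for the annotation, strand setting and treatment of multiply mapped reads, the sources used here state nothing. Samples were grouped by their titles, and no table column was without a sample.

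Counts were tested per assay with edgeR 4.0.16 (R 4.3.3) quasi-likelihood F tests after filterByExpr (minimum count 10) and TMM normalisation, over all genes, with Benjamini-Hochberg adjustment at 0.05. The difference between assays was the interaction of genotype and assay over 12 libraries. Standard errors are the log2 change over the root of F. The Ctrl ratio used mean CPM plus 0.5 and was not tested, since nascent counts chose the genes. In Ctrl and KO 3 counts, taken as the limit of detection per library, are 0.0302 to 0.0365 CPM in 4sU-seq and 0.0740 to 0.0973 CPM in RNA-seq. Members and gene lists were chosen with earlier results of these data known. Named genes are the 10 highest and 10 lowest changes called without overlap in each assay, all called differences, the 6 extreme ratios at each end, the 6 highest levels per kb, those next to the threshold, neighbouring LINC genes and a list of known ones. The scripts were tested on simulated data. Alternatives were other scalings, filters and thresholds, DESeq2 1.42.0, a replicate block and each library left out. Removing the gene span trend, leaving out both 4sU-seq replicates 2 and merging the closest pair of RNA-seq libraries, KO replicates 1 and 2, were chosen after seeing the data.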

Additional observations from a re-analysis of the deposited data

Results flagged for a closer look

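The KO change differed between 4sU-seq and RNA-seq, by edgeR's test of the interaction of genotype and assay, for 4 LINC genes. They are 3.15% of the 127 tested, beside 2.14% of all genes tested. LINC00511 (−0.78) and LINC00839 (−0.59) were lower in nascent RNA with little change in steady-state RNA. LINC01405 (−1.19) was lower in both assays, more so in nascent RNA. LINC01468, or LNCAROD (1.11), was higher in both, more so in nascent RNA. The difference of LINC00511 was lost only under ERCC scaling. Those of LINC00839, LNCAROD and LINC01405 were lost under 11 of 18, 12 of 18 and 14 of 17 alternatives, ERCC scaling among them.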

How the results depend on the processing

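In nascent RNA, 43 LINC genes were called. ERCC scaling left 7, a replicate block gave 68 (49 higher, 19 lower), leaving out 1 library gave 19 to 102, and leaving out both replicates 2 gave 99. The lowest counts were without Ctrl replicate 1 (19), Ctrl replicate 2 (22) and KO replicate 1 (27), and the highest was without KO replicate 2 (102). Of all genes tested, 19.6% were called in the main fit, 3.37% under ERCC scaling and 32.5% with the replicate block. The share was 6.09 to 53.8% with 1 library left out and 50.3% without both replicates 2. ERCC reads were 0.0230% (KO replicate 3) to 0.0560% (KO replicate 2) of gene counts in 4sU-seq. A mean count of 500 or more left 19 of 90 genes called. The median nascent change, 0.23, was 0.46 under ERCC scaling. In RNA-seq the 60 calls became 33 where a mean of 50 counts was required, with fewer genes tested, and 64 with the replicate block. Of all genes tested, these settings called 58.1% and 50.9%. The median change in RNA-seq, 0.21, was 0.23 with DESeq2 size factors or its Wald test, 0.29 under ERCC scaling, 0.39 with library size alone, 0.28 with no filter, 0.13 with a mean of 50 counts, 0.25 with the span trend removed, and 0.19 to 0.31 with 1 library left out. The 4 differences between assays became 0 under ERCC scaling (7 over all genes), 3 with the replicate block, 1 to 33 with 1 library left out, 26 without both 4sU-seq replicates 2 and 1 with RNA-seq KO replicates 1 and 2 added together. Of all genes tested, 4.18% differed with the replicate block, 0.563 to 32.1% with 1 library left out and 27.0% without both 4sU-seq replicates 2. The median Ctrl ratio, 1.61, was 1.74 and 1.12 with pseudocounts of 0.1 and 2 CPM, 1.47 with TMM over 12 libraries and 1.46 to 1.68 with 1 library left out. LINC00116 (MTLN) reversed without 4sU-seq KO replicate 2, to −0.39. Except where fewer genes or libraries entered, the cause was not tested. Scaling by library size alone moved the median of all genes to 0.14 in 4sU-seq and 0.19 in RNA-seq. For each gene, the log2 deviation of each library from the mean of its own group was taken. Between same-numbered Ctrl and KO libraries these deviations correlated at −0.07, 0.71 and 0.70 in 4sU-seq and at −0.04, 0.16 and 0.23 in RNA-seq. In 4sU-seq, the deviations of Ctrl replicate 3 also correlated at 0.59 with those of KO replicate 1 and at −0.72 with those of KO replicate 2. Some spread was thus shared by Ctrl and KO libraries there, and its source was not tested. Deviations within a group cancel out for each gene, so these correlations are not independent of each other. These values do not settle whether the numbers pair the libraries, and the main tests did not pair them.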
